A study of Homo sapiens with 6 samples.

Results

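The 10 genes described here code for aldehyde dehydrogenases: ALDH1A1, ALDH1A3, ALDH1B1, ALDH2, ALDH3A1, ALDH3A2, ALDH3B1, ALDH7A1, ALDH9A1 and ALDH18A1. They were taken by name from the 17860 genes of the deposited table, which lists 9 further genes of the family. ALDH1A1 and ALDH1A3 were included as markers of breast cancer stem cells, and ALDH1A1 was also chosen by its measured rise in CPM from shNC to shMSLN cells, so its values are given as a description and without a test. All 10 genes had a value in every sample and all 10 passed the filter on low counts.

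HCC1806-HM3 is a triple-negative breast cancer line, selected over repeated passages in mice for spread of HCC1806 to the liver, and its cells are labelled as human breast squamous cell carcinoma cells. The comparison asks which mRNAs differ when mesothelin, the cell surface protein encoded by MSLN, is depleted. 3 samples carried a control shRNA (shNC, genotype Control) and 3 an shRNA against MSLN (shMSLN, genotype MSLN knockdown). Cells of both groups were infected with lentiviral vectors, selected with G418 and kept in RPMI medium with fetal bovine serum, and oligo(dT)-enriched mRNA was sequenced by BGI. The labels give the 3 knockdown samples 1 name, shMSLN, and do not say whether they came from 1 line. They also do not say that the 3 samples of a group were separate cultures. The p-values thus measure only the spread between these samples, which may be technical.

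Aldehyde dehydrogenases oxidise aldehydes to carboxylic acids with NAD or NADP. ALDH1A1, ALDH1A2 and ALDH1A3 turn retinal into retinoic acid, the ligand of the RAR receptors. The other members, apart from ALDH18A1, clear acetaldehyde, fatty aldehydes and aldehydes formed in the breakdown of lipids and amino acids. High activity in a fluorescent aldehyde dehydrogenase assay is widely used to enrich tumour-initiating cells of the breast, and in that tissue it is attributed largely to ALDH1A1 and ALDH1A3.

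The sequences around the start sites of ALDH1A1 and ALDH1A3 are shown because these paralogs share the retinal-oxidising reaction and moved in opposite directions in shMSLN cells. Each runs from 250 bases before to 50 bases after the RefSeq start site on GRCh38.p14, written 5′ to 3′ on the strand of the gene, chr9:72953004-72953303 on the reverse strand for ALDH1A1 and chr15:100879581-100879880 on the forward strand for ALDH1A3. Capitals mark CCAAT and GGGCGG, read on either strand, where neighbouring copies may run into each other. Both windows lie inside the span that GENCODE release 29 gives these genes, whose annotated ends reach further upstream.
ALDH1A1: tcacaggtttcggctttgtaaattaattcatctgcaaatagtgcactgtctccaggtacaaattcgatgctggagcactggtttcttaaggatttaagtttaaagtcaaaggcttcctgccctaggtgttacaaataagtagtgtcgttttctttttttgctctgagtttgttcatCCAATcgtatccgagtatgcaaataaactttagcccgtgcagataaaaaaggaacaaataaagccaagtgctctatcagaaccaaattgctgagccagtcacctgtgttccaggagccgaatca
ALDH1A3: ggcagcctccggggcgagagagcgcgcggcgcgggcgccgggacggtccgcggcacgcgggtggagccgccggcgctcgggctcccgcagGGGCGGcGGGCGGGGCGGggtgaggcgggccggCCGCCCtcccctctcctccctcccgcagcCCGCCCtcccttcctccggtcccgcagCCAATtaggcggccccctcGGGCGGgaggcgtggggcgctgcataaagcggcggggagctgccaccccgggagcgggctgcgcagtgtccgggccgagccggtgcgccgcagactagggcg
The ALDH1A1 window held 40.3% G and C, and 11.8% of the 35116 RefSeq promoter windows of this length held less. The ALDH1A3 window held 81.7%, and 1.28% of windows held more, against a median of 58.7%. Each held a single CCAAT, 74 bases before the start in ALDH1A1 and 71 bases before it in ALDH1A3, a motif found in 34.6% of all windows. GGGCGG, found in 45.0% of windows, was present 6 times in ALDH1A3 and 0 times in ALDH1A1. GCGTG, the core of the aryl hydrocarbon receptor element, was present 2 times in ALDH1A3 and 0 times in ALDH1A1, and was found in 36.5% of windows. TATAAA, found in 11.5% of windows, and TGACNNNGC, the core of the antioxidant response element, found in 13.3%, were in neither. All 5 motifs were searched on both strands. A match of letters is not evidence that a factor binds, and absence from these windows says nothing of sites elsewhere. 8 of the 10 members had an entry in the promoter table, with ALDH2 and ALDH3A1 the exceptions.

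The targets of the human MSLN shRNAs of the study are shown with the longest stretch that each shares with the transcripts of the members. The sources used here do not say which of the pair the sequenced cells carried.
shRNA1: tggccaacccacctaacattt
shRNA2: ctggacgtcctaaagcataaa
All 21 bases of each matched MSLN transcripts of GENCODE release 29. The longest run shared with any transcript of ALDH1A1 or of ALDH1A3 was 7 bases for either target, and the longest over all 10 members was 10 bases, in ALDH7A1.

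MSLN itself stood at 231, 226 and 227 CPM in shNC cells and at 37.1, 36.2 and 35.4 CPM in shMSLN cells, or a log2 fold change (shMSLN minus shNC, called log2 change hereafter) of -2.65 (SE, the standard error, 0.0422, adjusted p = 3.97e-15, edgeR). CPM are counts relative to the TMM-scaled library size and suit comparisons of 1 gene between samples. TPM, which are also scaled for transcript length, are used where levels of different genes are compared. Total estimated counts lay between 17507837 and 18512135, so depth was similar in the 6 samples. In shMSLN replicates 2 and 3, 47.7% of the counts above 100 reads were whole numbers, against 3.36% to 7.02% in the other 4 samples, and the shMSLN columns lacked values for up to 1103 genes each, whereas the shNC columns lacked 0. Counts of called genes were therefore also taken with shMSLN replicate 1 as the only shMSLN sample.

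The cells carried the markers of their labelled type. EPCAM averaged 246 and 241 CPM in shNC and shMSLN cells, CDH1 294 and 326 CPM, KRT8 558 and 541 CPM and TP63, of basal and squamous cells, 396 and 339 CPM, whereas the basal keratin KRT14 was low at 3.52 and 3.98 CPM. The summed level of 10 epithelial and basal markers was 4332 to 4869 CPM in shNC samples and 3870 to 4028 CPM in shMSLN samples. Of these 10, 2 were higher and 5 lower at an edgeR adjusted p below 0.05. Over all 14552 tested genes 34.6% passed that threshold, 16.6% as higher and 18.0% as lower. CDH1 and KRT17 were higher (log2 changes 0.15 and 0.16), and KRT5 and KRT6A were among the lower ones (-0.38 and -1.04). The part of these differences in the results below was not tested. Of the hepatocyte markers, ALB was at most 0.0561 CPM in any sample and only TF exceeded 1 CPM, with a log2 change of 0.66. Sums over the 6 hepatocyte markers with values were 16.5 to 17.6 CPM against 18.2 to 31.1 CPM. Fibroblast markers summed to 35.0 to 37.4 CPM against 36.7 to 39.0 CPM, nearly all from COL1A1, and leukocyte and endothelial markers to 35.6 to 36.9 CPM against 34.8 to 36.9 CPM, mostly from CD68. Of the 4 fibroblast markers tested, FAP and DCN were higher in shMSLN cells (log2 changes 1.04 and 0.70, adjusted p = 0.018 and 0.0389, edgeR), at means of at most 1.77 CPM. Of the 6 leukocyte and endothelial markers tested, VWF was higher (0.41, adjusted p = 0.0273, edgeR). The endothelial markers CDH5 and PECAM1 had log2 changes of -0.885 and -0.0886 and did not pass (adjusted p = 0.0503 and 0.793, edgeR). The calls of FAP, DCN and VWF were lost in 5 of 15, 7 of 16 and 6 of 16 alternative fits, among them DESeq2. The part of these markers in the results was not tested. In bulk RNA, fewer cells expressing a gene and less of its RNA per cell cannot be told apart.

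In the shMSLN cells the aldehyde dehydrogenases did not move as a block. ALDH1A1 mRNA was 3.20 times its control level, whereas ALDH1A3 fell by 23.2%. Of the 9 members other than ALDH1A1, 2 rose (ALDH3B1 and ALDH7A1), 4 fell (ALDH1A3, ALDH1B1, ALDH3A1 and ALDH3A2) and 3 did not pass the test (ALDH2, ALDH9A1 and ALDH18A1), at an adjusted p below 0.05 from the edgeR fit over all 14552 tested genes. Over those 14552 genes, 34.6% passed the same threshold, 16.6% as higher and 18.0% as lower, and the 6 of 9 are to be read against that background. The median log2 change of the 9 was -0.118, against 0.00186 over all tested genes. With shMSLN replicate 1 as the only shMSLN sample, the 6 kept their directions. The log2 changes were then 0.238 for ALDH3B1, 0.249 for ALDH7A1, -0.389 for ALDH1A3 and -0.401 for ALDH1B1. Those of ALDH3A1 and ALDH3A2 were smaller, at -0.0731 and -0.183.

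**Figure D1:**
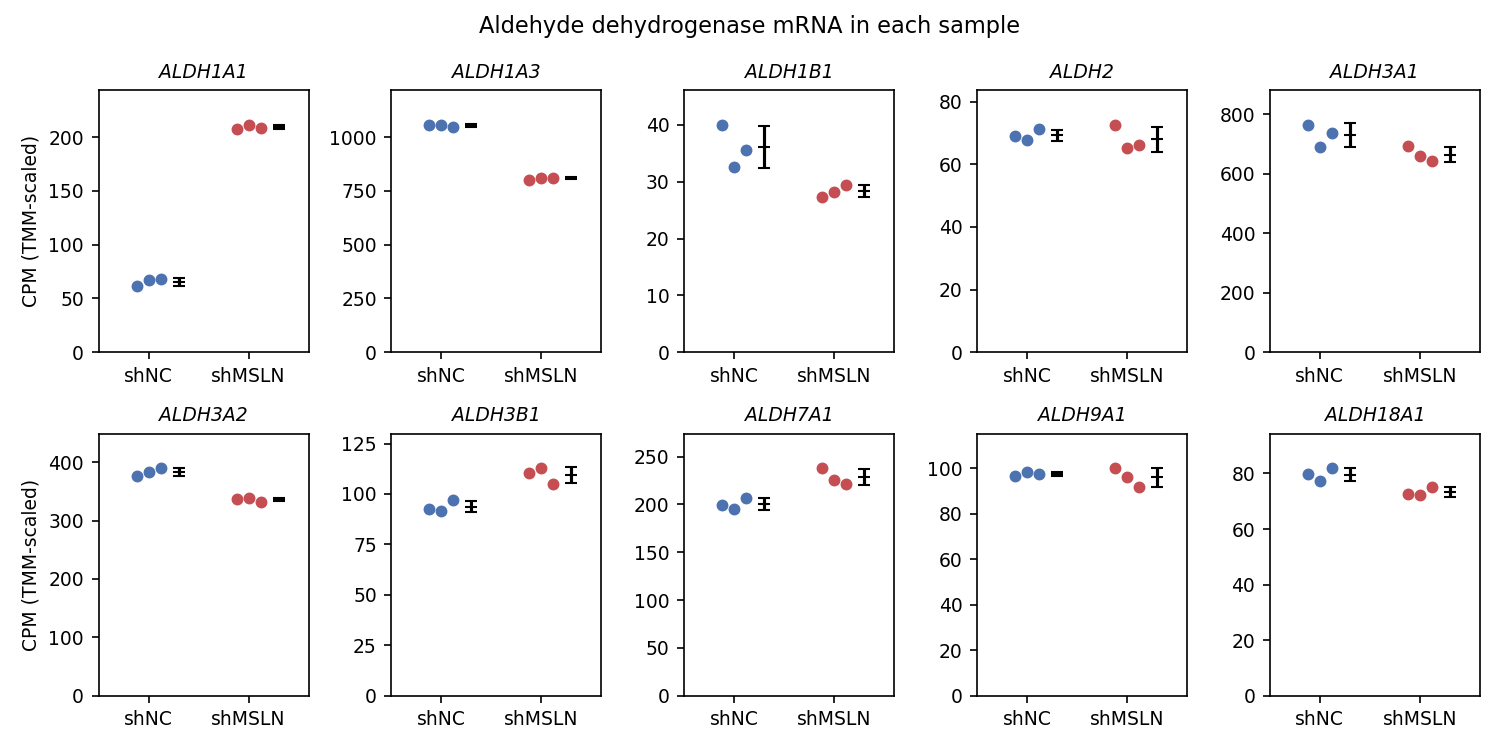
TMM-scaled CPM (vertical axis, from 0, with its own range in each panel) of the 10 aldehyde dehydrogenases in the 3 shNC samples (blue) and 3 shMSLN samples (red); points are samples in order of replicate number and black bars are mean ± SD. The shMSLN points of ALDH1A1 sit at 208 to 212 CPM, above the shNC points at 61.3 to 67.9 CPM, while those of ALDH1A3 lie below the shNC points and those of ALDH2 and ALDH9A1 overlap them.

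ALDH1A1 (NCBI Gene 216) is the cytosolic retinaldehyde dehydrogenase and lies on the reverse strand of chromosome 9, from 72900662 to 73080442 in GENCODE release 29 on GRCh38. It measured 61.3, 66.8 and 67.9 CPM in shNC replicates 1, 2 and 3 and 208, 212 and 209 CPM in shMSLN replicates 1, 2 and 3. The groups did not overlap, and the gap of 140 CPM between the highest shNC and the lowest shMSLN sample was far wider than the range within either group. The mean was 65.3 ± 3.51 CPM (SD, n = 3) in shNC and 209 ± 2.07 CPM (SD, n = 3) in shMSLN cells, a log2 change of 1.68 (SE 0.0441). The SE takes no account of the choice of this gene by its rise. Taken against the shNC mean, shMSLN replicates 1, 2 and 3 gave log2 differences of 1.67, 1.69 and 1.68. Replicate 1 is the shMSLN sample with mostly fractional counts. As the gene was picked for its rise in these samples, these values are a description. Among the 14552 tested genes ALDH1A1 had rank 29 by the size of its rise, with 0.192% of genes above it. Across every alternative processing tried, the value stayed between 1.63 and 1.71. Its exons share 0 bases with those of any other annotated gene, and the transcript length implied by its counts and FPKM was 2050 bases in each of the 6 samples.

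ALDH1A3 (NCBI Gene 220) makes retinoic acid from retinal as well, and is encoded at 100877714 to 100916626 of chromosome 15, forward strand. It stood at 1058, 1054 and 1045 CPM in shNC cells and at 803, 811 and 812 CPM in shMSLN cells. All shMSLN samples were below all shNC samples, and the means were 1052 ± 6.57 and 809 ± 5.12 CPM (SD, n = 3 each). The log2 change was -0.38 (SE 0.0306, adjusted p = 2.74e-07, edgeR). Among all tested genes, 16.9% differed by more than ALDH1A3 in either direction. The call held in all 16 alternatives, with log2 changes of -0.389 to -0.351. An antisense gene, AC015712.2, shares 1585 exon bases with ALDH1A3, and since no source used here says whether strand was used in counting, reads of the pair cannot be told apart.

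ALDH1A2, the remaining retinaldehyde dehydrogenase of the family, had 0 to 2 reads in each sample and was not tested. Of the 3 ALDH1A genes, ALDH1A1 and ALDH1A3 were thus the ones with more than 2 reads in any sample. Per transcript length, ALDH1A3 was 10.6, 9.72 and 9.47 times as abundant as ALDH1A1 in the shNC samples and 2.38, 2.36 and 2.39 times as abundant in the shMSLN samples (9.93 ± 0.586 and 2.38 ± 0.0142, SD, n = 3). ALDH1A3 therefore stayed the more abundant of the pair in every sample, by a smaller margin in shMSLN cells.

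ALDH1B1 and ALDH2 are mitochondrial enzymes that oxidise acetaldehyde, the first product of ethanol. ALDH1B1 (NCBI Gene 219), on the forward strand of chromosome 9 at 38392664 to 38398661, measured 40.1, 32.6 and 35.6 CPM in shNC cells and 27.3, 28.3 and 29.5 CPM in shMSLN cells. The groups did not overlap, although the shNC samples were spread more widely than the shMSLN samples, and the log2 change was -0.35 (SE 0.0720, adjusted p = 0.00171, edgeR). ALDH2 (NCBI Gene 217), on the forward strand of chromosome 12 at 111766887 to 111817529, measured 69.0, 67.6 and 71.2 CPM in shNC cells and 72.7, 65.2 and 66.0 CPM in shMSLN cells. The shNC values all fell inside the range of the shMSLN values, and the log2 change was -0.03 (95% interval -0.14 to 0.08, adjusted p = 0.717, edgeR). ALDH2 shares 680 exon bases on its own strand with AC002996.1, a gene that is not in the table.

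The 3 members of the ALDH3 group act on aromatic and fatty aldehydes. ALDH3A1 (NCBI Gene 218), a cytosolic enzyme of aromatic and medium-chain aldehydes, stood at 766, 689 and 738 CPM in shNC cells and 694, 659 and 643 CPM in shMSLN cells. The highest shMSLN sample, replicate 1, lay above the lowest shNC sample, replicate 2. The log2 change of -0.14 (SE 0.0423) had an adjusted p of 0.0217 with edgeR, and this call was lost with upper-quartile scaling, without shNC replicate 3, without shMSLN replicate 2 or 3, and with shMSLN replicate 1 alone. Over the alternatives its adjusted p ranged from 0.00142 to 0.554.

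ALDH3A2 (NCBI Gene 224), the fatty aldehyde dehydrogenase of the endoplasmic reticulum and the gene mutated in Sjögren-Larsson syndrome, measured 376, 383 and 389.8 CPM in shNC cells and 337, 338 and 332 CPM in shMSLN cells. The groups were clearly apart, with a log2 change of -0.19 (SE 0.0338, adjusted p = 0.000576, edgeR), and the adjusted p was 0.0848 with shMSLN replicate 1 alone. ALDH3A1 and ALDH3A2 are neighbours on chromosome 17 on opposite strands, 60385 bases apart, at 19737984 to 19748943 and 19648136 to 19677598. ALDH3B1 (NCBI Gene 221), a membrane-bound enzyme of lipid-derived aldehydes on the forward strand of chromosome 11 at 68008578 to 68029282, went the other way. It measured 92.5, 91.7 and 96.9 CPM in shNC cells and 110.4, 113 and 105 CPM in shMSLN cells, a log2 change of 0.22 without overlap (SE 0.0439, adjusted p = 0.00121, edgeR).

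The last 3 members serve amino acid and amine metabolism. ALDH7A1 (NCBI Gene 501), or antiquitin, oxidises an aldehyde of lysine breakdown and betaine aldehyde, and lies on the reverse strand of chromosome 5 at 126531200 to 126595418. It measured 199.6, 195 and 207 CPM in shNC cells and 238, 226 and 222 CPM in shMSLN cells. The groups did not overlap, and the log2 change was 0.19 (SE 0.0402, adjusted p = 0.0021, edgeR). ALDH9A1 (NCBI Gene 223), on the reverse strand of chromosome 1 at 165662216 to 165698863, oxidises an aldehyde in carnitine synthesis and aminobutyraldehyde from polyamines. It measured 96.7, 98.3 and 97.4 CPM in shNC cells and 100.04, 96.2 and 91.8 CPM in shMSLN cells. All shNC values again lay inside the shMSLN range, with a log2 change of -0.02 (95% interval -0.11 to 0.07, adjusted p = 0.738, edgeR).

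ALDH18A1 (NCBI Gene 5832) is the bifunctional enzyme of the first steps of proline and ornithine synthesis from glutamate, and unlike the other members reduces its substrate. It lies on the reverse strand of chromosome 10 at 95605929 to 95656706. It measured 79.6, 77.2 and 81.9 CPM in shNC cells and 72.7, 72.1 and 75.3 CPM in shMSLN cells. The groups did not overlap, yet the log2 change of -0.12 (95% interval -0.21 to -0.02) had an adjusted p of 0.0523 in the edgeR fit. With the replicate number as a block the edgeR adjusted p was 0.0294, so this gene stood at the threshold and fell on either side of it.

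**Figure D2:**
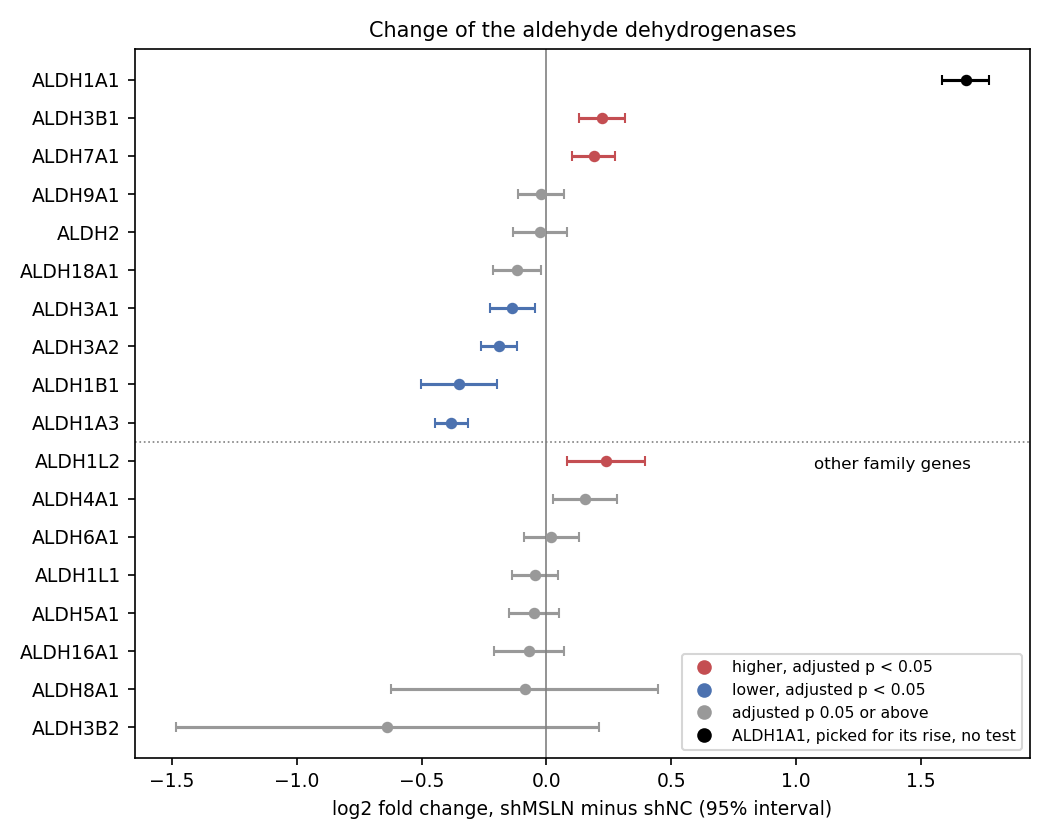
Log2 change, shMSLN minus shNC (horizontal axis), with 95% interval from the edgeR fit, of the 10 members (above the dotted line) and of the 8 tested other genes of the family (below it); colour marks the outcome of the test, and ALDH1A1, in black, has none. ALDH1A1 lies at 1.68, whereas the other 9 members lie between -0.38 and 0.22. The interval drawn for ALDH1A1 takes no account of its choice by its rise.

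The table lists 9 other aldehyde dehydrogenases. Of the 8 tested, 1 was higher, 0 were lower and 7 did not pass the edgeR test, against 34.6% of all tested genes that were called (16.6% higher and 18.0% lower), and their median log2 change was -0.0478. At an unadjusted p below 0.05, for which no share over all genes was taken, 2 were higher and 0 lower with edgeR. After adjustment DESeq2 and limma-voom each called 1 higher and 0 lower. Over all 14552 tested genes they called 3863 and 5004. The gene that was higher was ALDH1L2, the mitochondrial formyltetrahydrofolate dehydrogenase, at 30.0, 27.6 and 24.1 CPM in shNC cells and 32.6, 32.9 and 31.0 CPM in shMSLN cells (log2 change 0.24, SE 0.0730, adjusted p = 0.0196, edgeR). This call was lost without shNC replicate 3, without shMSLN replicate 1 or without shMSLN replicate 2. ALDH4A1, which oxidises an aldehyde of proline breakdown, went from 32.5 ± 1.48 to 36.2 ± 1.98 CPM (SD, n = 3 each), with an edgeR adjusted p of 0.0574, or 0.0394 with the replicate block. ALDH1L1, ALDH5A1, ALDH6A1, ALDH8A1 and ALDH16A1 had log2 changes of -0.05, -0.05, 0.02, -0.09 and -0.07, and ALDH3B2, at 0.868 and 0.558 CPM on average, one of -0.64 with a 95% interval of -1.48 to 0.21.

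Levels of the 19 genes were ordered by mean TPM. In shNC cells ALDH3A1 was the most abundant, at 996 ± 30.7 TPM, followed by ALDH1A3 at 680.3 ± 16.6 TPM and ALDH3A2 at 228 ± 7.42 TPM (SD, n = 3 each). These 3 were separate from each other and from the rest in every sample. ALDH7A1 and ALDH9A1 came next, at 91.5 ± 2.08 and 89.4 ± 2.71 TPM, and overlapped each other. ALDH3B1, ALDH1L1 and ALDH1A1 followed at 75.5 ± 2.87, 74.6 ± 3.16 and 68.7 ± 4.61 TPM, each overlapping the next, with ALDH1A1 at rank 8 of 19. ALDH18A1 stood at 52.9 ± 1.47, ALDH1B1 at 26.1 ± 2.22 and ALDH2 at 15.7 ± 0.301 TPM. ALDH2 thus ranked below ALDH1B1 per transcript length although it gave more reads, its implied transcript length being 9500 bases against 2970 to 2980 for ALDH1B1.

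In shMSLN cells ALDH1A1 reached 221, 228 and 226 TPM and stood at rank 3. It lay above ALDH3A2, at 204, 208 and 204 TPM, in every sample, and below ALDH1A3, at 527, 540.3 and 540.1 TPM. ALDH3A1 remained first at 928 ± 30.4 TPM (SD, n = 3). The order of the members below was ALDH7A1 at 107 ± 3.13, ALDH9A1 at 90.1 ± 3.26, ALDH3B1 at 90.0 ± 3.57, ALDH18A1 at 49.6 ± 1.13, ALDH1B1 at 21.0 ± 0.930 and ALDH2 at 15.7 ± 0.835 TPM, of which only ALDH9A1 and ALDH3B1 overlapped. FPKM gave ALDH1A1 the same rank. Within a sample TPM and FPKM differ only by a constant factor, so this is no separate check.

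Summed over the 10 members, ALDH1A1 included, the mRNA changed little while its makeup shifted. The sum holds the rise of ALDH1A1 from 68.7 to 225 TPM on average, for which this gene was picked. Its small change is therefore a description too, and no sum without ALDH1A1 was taken. The sum was 2324, 2321 and 2327 TPM in shNC cells and 2288, 2281 and 2232 TPM in shMSLN cells (2324 ± 2.83 and 2267 ± 30.5, SD, n = 3). ALDH1A1 held 2.73%, 3.10% and 3.04% of it in shNC samples and 9.67%, 10.0% and 10.1% in shMSLN samples, a description since the gene was picked for its rise. The share of ALDH1A3 went from 29.3% ± 0.748 to 23.6% ± 0.593, that of ALDH3A1 from 42.8% ± 1.29 to 40.9% ± 0.862 and that of ALDH3A2 from 9.82% ± 0.323 to 9.05% ± 0.124 (SD, n = 3 each). Shares of a sum are tied to each other, and a larger share of 1 gene lowers those of the others. ALDH3A1 was 1.46 ± 0.0777 times as abundant as ALDH1A3 in shNC cells and 1.73 ± 0.0802 times in shMSLN cells, a ratio that ALDH1A1 does not enter.

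The retinoid pathway supplies the substrate of ALDH1A1 and ALDH1A3 and responds to their product. Of its 33 listed genes 26 were tested: 5 were higher, 10 were lower and 11 did not pass the edgeR test, with a median log2 change of -0.0944. That is 15 of 26 called against 34.6% of all genes. DESeq2 called 9 of the 26 (2 higher, 7 lower), but it also called fewer of all 14552 genes, 3863 against 5032 with edgeR. With shMSLN replicate 1 as the only shMSLN sample the median log2 change of the list was -0.154. STRA6, the cell surface receptor for retinol bound to its carrier, measured 15.1, 17.4 and 17.4 CPM in shNC cells and 7.96, 8.64 and 8.25 CPM in shMSLN cells (log2 change -1.01, SE 0.0909, adjusted p = 9.6e-07, edgeR). SDR16C5, a retinol dehydrogenase, measured 10.7, 11.4 and 11.9 CPM against 6.13, 6.73 and 6.61 CPM (-0.80, SE 0.0999, adjusted p = 2.28e-05, edgeR). RDH10, which makes the retinal that the ALDH1A enzymes use, fell by 0.22 on the log2 scale, and DHRS3, which turns retinal back into retinol, fell by 0.18.

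CYP26B1, which breaks down retinoic acid and is itself induced by it in many cells, measured 5.25, 4.82 and 3.67 CPM in shNC cells and 2.20, 2.36 and 2.09 CPM in shMSLN cells. The groups did not overlap, and the log2 change was -1.05 (SE 0.180, adjusted p = 0.000426, edgeR). CYP26A1 and CYP26C1, at most 0.222 and 0.0561 CPM in any sample, were not tested. Of the receptors, RARG and RARB fell by 0.24 and 0.17 and RXRA and RXRB rose by 0.13 and 0.12 on the log2 scale, while RARA did not pass the test (adjusted p = 0.243, edgeR). Among genes known to respond to retinoic acid, NRIP1 (-0.23) and NR2F1 (-0.42) were lower, and PLAAT4, TGM2 and NR2F2, with log2 changes of 0.04, 0.08 and 0.07, did not pass. FABP5, which can carry retinoic acid to another nuclear receptor, rose by 0.29, and CRABP2, which carries it to the RARs, did not pass (-0.14, adjusted p = 0.508, edgeR). The low genes ADH7 and BCO1 rose by 0.63 and 0.77, and BCO1, which cleaves carotene into retinal, lost its call with DESeq2 and in 4 of the 6 fits that left out 1 sample. Over the 16 alternatives the calls of RXRB and NR2F1 were lost in 7 each, of ADH7 in 6 and of RARB in 3.

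**Figure D3:**
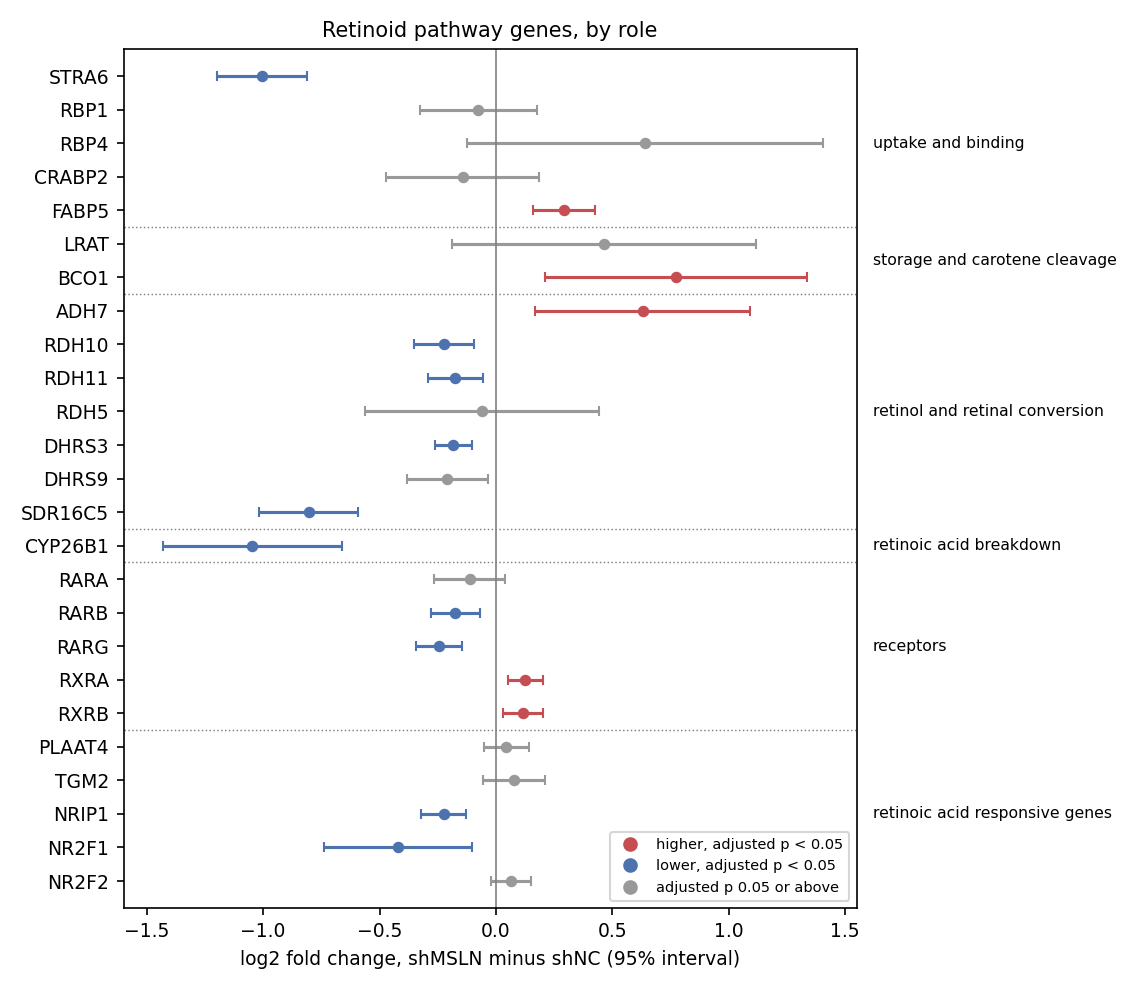
Log2 change, shMSLN minus shNC (horizontal axis), with 95% interval from the edgeR fit, of tested genes of the retinoid pathway, ordered by role (right). STRA6, SDR16C5 and CYP26B1 lie between -1.05 and -0.80, the other genes that passed the test as lower between -0.42 and -0.17, and the genes that passed as higher between 0.12 and 0.77.

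ALDH1A1 and ALDH1A3 are used as stem cell markers together with surface proteins and transcription factors. Of 19 such genes 16 were tested, and 6 were higher, 3 were lower and 7 did not pass the edgeR test, with a median log2 change of 0.0517. CD24 is among the 6, although its low level is the one used as a marker. The counts and the median therefore give no direction of stemness. The share of all tested genes that was called is 34.6%. CD44, whose high level with low CD24 defines breast tumour-initiating cells in a widely used gate, fell from 1702 ± 48.3 to 1381 ± 12.7 CPM (log2 change -0.30, adjusted p = 4.85e-06, edgeR). CD24 rose from 548 ± 52.0 to 659 ± 12.5 CPM (0.27, adjusted p = 0.00127, edgeR; SD, n = 3 in each group). CD44 was thus lower and CD24 higher in the same samples in which ALDH1A1 was higher and ALDH1A3 lower. TSPAN8, a tetraspanin of stem-like mammary cells, rose from 4.74 ± 0.429 to 8.34 ± 0.566 CPM (0.81, adjusted p = 0.000127, edgeR), and PROCR, ITGA6 and LGR4 rose by 0.42, 0.13 and 0.23. ABCG2, a drug efflux pump, was higher by 0.56 at 2.10 against 3.11 CPM, and this call was lost in 6 of the 16 alternatives. KLF4 and MYC fell by 0.52 and 0.23, and SOX2, SOX9, NANOG, POU5F1, BMI1, EPCAM and THY1 did not pass the test. With shMSLN replicate 1 as the only shMSLN sample, the log2 changes were 0.7 for TSPAN8, 0.413 for ABCG2, 0.389 for PROCR and -0.403 for KLF4.

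Genes of the pathways around the other members were counted in the same way, against the same 34.6% of all genes. Among 13 tested alcohol dehydrogenases and carbonyl reductases, which exchange aldehydes and alcohols, 3 were higher and 2 lower, with a median log2 change of 0.125. ADH5, which oxidises the formaldehyde adduct of glutathione, rose by 0.15, and AKR1A1, an aldehyde reductase, fell by 0.30. AKR1C2 went from 506 ± 54.8 to 307 ± 9.005 CPM (SD, n = 3 each; log2 change -0.72, adjusted p = 4.04e-07, edgeR) and AKR1C1 and AKR1C3 rose by 0.33 and 0.19, but these genes are near-identical copies whose reads the counting could split between them. The calls of AKR1C1 and AKR1C3 were lost in 5 and 2 of the 16 alternatives, and with shMSLN replicate 1 as the only shMSLN sample AKR1A1 and AKR1C2 passed. Among 6 proline genes around ALDH18A1 the only one called was OAT, which links ornithine to the same intermediate and was lower (292 ± 8.42 to 252 ± 8.07 CPM, log2 change -0.21, adjusted p = 0.000582, edgeR). With the replicate block 2 of these 6 were called.

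Around ALDH7A1, 6 genes of lysine and choline breakdown were tested, of which AADAT was higher (0.28) and GCDH lower (-0.24), and DESeq2 called 0 of them. Both calls were lost in 7 of the 16 alternatives. Around ALDH9A1, 9 genes of carnitine and polyamine metabolism had a median log2 change of -0.165, with 3 lower and 1 higher. SAT1, the rate-limiting enzyme of polyamine breakdown, went from 112 ± 3.70 to 68.6 ± 1.85 CPM (SD, n = 3 each; log2 change -0.71, adjusted p = 2.46e-08, edgeR), spermine synthase, SMS, fell by 0.30, and AZIN1, an activator of ornithine decarboxylase, by 0.17. ODC1, ornithine decarboxylase itself, was higher by 0.18, a call lost in 7 of the 16 alternatives, among them DESeq2, and AZIN1 lost its call with shMSLN replicate 1 as the only shMSLN sample (adjusted p = 0.0539, edgeR). Around the ALDH3 enzymes, 11 genes that supply or compete for fatty aldehydes were tested, and 1 was higher and 4 lower, with a median of -0.126. AGMO, which releases fatty aldehydes from ether lipids, rose from 2.75 ± 0.564 to 5.73 ± 0.764 CPM (1.06, adjusted p = 0.000263, edgeR). SGPP2, a sphingosine phosphate phosphatase, fell from 13.3 ± 1.75 to 6.94 ± 1.19 CPM (-0.94, adjusted p = 5.25e-05, edgeR), and FAR2, which reduces fatty acyl groups to alcohols, fell by 0.34. CYP4F11 was lower by 0.67 and PEDS1 by 0.13, the latter sharing sequence with the read-through gene PEDS1-UBE2V1, and these calls were lost in 4 and 9 of the 16 alternatives. With shMSLN replicate 1 as the only shMSLN sample FAR2 also lost its call (adjusted p = 0.0587, edgeR).

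The 5 genes whose profile over the 6 samples lay nearest to that of ALDH1A1 were UPK2, OLR1, EGR1, PDGFD and MYCL. Likeness was measured as the root mean square difference of log2 CPM relative to the shNC mean, over 13761 genes, and came to 0.0998, 0.129, 0.130, 0.133 and 0.134. UPK2, a uroplakin of the urothelium, averaged 25.2 and 74.8 CPM in shNC and shMSLN cells. OLR1, a receptor for oxidised low density lipoprotein, averaged 176 and 501 CPM, and EGR1, an immediate early transcription factor, 15.3 and 54.5 CPM. PDGFD, a growth factor of the PDGF family, averaged 16.8 and 55.7 CPM, and MYCL, a transcription factor of the MYC family, 12.3 and 36.1 CPM. These genes were picked for that likeness, so their values are a description.

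The tested genes nearest to ALDH1A1 on chromosome 9 did not pass the test as higher. TMC1, 62431 bases away, averaged 0.775 ± 0.314 CPM in shNC and 1.01 ± 0.259 CPM in shMSLN cells (SD, n = 3). Its log2 change was 0.39 (SE 0.342, adjusted p = 0.408, edgeR), too imprecise at this low level to tell a rise from none. ANXA1, 71314 bases away on the other side, went from 666 ± 32.9 to 614 ± 8.18 CPM (SD, n = 3; log2 change -0.12, adjusted p = 0.0278, edgeR). LRRK1, which begins 2588 bases beyond ALDH1A3, had a log2 change of 0.07 (adjusted p = 0.154, edgeR), and ASB7, on its other side, of -0.12 (adjusted p = 0.145, edgeR).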

How the data were processed

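Poly(A) RNA of 3 shNC and 3 shMSLN samples of HCC1806-HM3 cells was sequenced by BGI. The authors deposited 1 table of 17860 genes that gives each sample's estimated counts, TPM and FPKM. The submitters' processing notes name the build GRCh38.p13, and the aligner, quantifier and annotation are not given in the sources used here. The deposited estimated counts are not scaled for depth, and some shMSLN values are missing marks. The deposited TPM and FPKM values are scaled for depth and transcript length, and were used for levels and shares only.

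Genes lacking a value in any sample were dropped, which left 16573, and counts were rounded. Groups follow the sample labels. edgeR 4.0.16 in R 4.3.3 (TMM, filterByExpr, glmQLFit, glmQLFTest, no covariate) tested 14552 genes, with the Benjamini-Hochberg adjustment taken over all of them and a threshold of 0.05. The study's methods name no test for this comparison. The fit was first tested on simulated data. Alternatives were RLE and upper-quartile scaling, DESeq2 1.42.0, 2 other filters for low genes, limma-voom (limma 3.58.1), robust estimation, missing values as 0 counts, the replicate number as a block and leaving out each sample. shMSLN replicate 1 as the only shMSLN sample was added after seeing the data.

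Whether the replicate numbers of the labels pair the samples was checked on the deviations of 10502 genes from their group means. Correlations between samples of the same number were 0.295, 0.111 and 0.113 for replicates 1, 2 and 3, each over the limit of 0.1 set for a pairing, although shNC replicate 2 with shMSLN replicate 3 gave 0.161. The main fit has no block although these values pass that limit, so its p-values ignore any such pairing. With the replicate block 5789 genes were called in place of 5032. Of the 9 members other than ALDH1A1, 7 were called in place of 6. For genes of the family the value with the block is given where it changes a call.

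The members and gene lists were chosen with earlier results of these data known. Named genes were the whole family, MSLN, up to 4 called genes of each list by the size of their log2 fold change, and the 5 profiles nearest to that of ALDH1A1 among genes with a mean of at least 1 CPM. Other genes of the lists, the marker genes and the genes flanking ALDH1A1 and ALDH1A3 are named beyond that rule, after their values were seen. Some genes counted in the lists are not reported here by name. Coordinates and exon overlaps are those of GENCODE release 29, which need not be the authors' annotation, and promoters those of RefSeq on GRCh38.p14. At this depth, with 3 samples in each group, differences of genes near 1 CPM are limited by counting error.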

Additional observations from a re-analysis of the deposited data

How the results depend on the processing

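Over the 16 alternatives, the number of called members other than ALDH1A1 was 4 to 7, and the rise of ALDH1A1 kept its direction with a log2 fold change of 1.63 to 1.71. The number of all genes called was 5032, between 3695 and 5399 with 1 sample left out, 3863 with DESeq2, 5789 with the replicate block and 1797 with shMSLN replicate 1 as the only shMSLN sample. In that last fit, chosen after seeing the data, the lone sample is assumed to vary like the shNC samples, and fewer samples are available to the test. It called 0 other aldehyde dehydrogenases, 4 retinoid, 3 stemness, 2 alcohol and carbonyl, 0 lysine and choline, 2 carnitine and polyamine and 2 fatty aldehyde genes. DESeq2 called 9 retinoid genes in place of 15, 3 fatty aldehyde genes in place of 5 and 0 lysine and choline genes in place of 2. Upper-quartile scaling called 2 other aldehyde dehydrogenases and 2 proline genes, in place of 1 and 1. The replicate block also called 2 other aldehyde dehydrogenases and 2 proline genes. It called 16 retinoid, 7 alcohol and carbonyl and 3 lysine and choline genes, in place of 15, 5 and 2. Apart from these and ALDH18A1 and ALDH4A1, the block changed no call of a named gene and moved no count of a list by over 1.5 times. With 1 sample left out, the counts ran from 0 to 2 for other aldehyde dehydrogenases, 3 to 6 for alcohol and carbonyl genes, 1 to 2 for proline genes, 0 to 3 for lysine and choline genes and 3 to 7 for fatty aldehyde genes.

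Genes near 0 changed sign. With 1 sample left out, the log2 fold change ran from -0.0795 to 0.00362 for ALDH2, -0.0531 to 0.0113 for ALDH9A1, -0.122 to 0.012 for ALDH16A1, -0.0155 to 0.0525 for ALDH6A1 and -0.265 to 0.0565 for ALDH8A1. With upper-quartile scaling it was 0.00209 for ALDH2 and 0.00777 for ALDH9A1. With shMSLN replicate 1 alone it was 0.0712 for ALDH2, 0.0394 for ALDH9A1, 0.0298 for ALDH16A1, 0.0133 for ALDH1L1 and 0.0132 for ALDH5A1. The cause of these shifts was not tested. For the single genes, 579 of the values under an alternative kept their direction and their side of the threshold, 57 lost and 6 gained a call, and 13 changed sign. ALDH3B2, with means of 0.868 and 0.558 CPM, and BCO1, with 1.07 and 1.83 CPM, rest on few reads.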
